A study of Mus musculus with 9 samples.

Results

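GREM1-treated and mock-treated control mouse myoblasts were compared on the 3 arrays of each group, 6 of the 9 arrays in the series, over 17141 of 24011 named genes. Myoblasts are the dividing progeny of satellite cells, the stem cells of skeletal muscle. They were derived from satellite cells, grown on collagen with basic FGF and 20% fetal bovine serum, and then kept in DMEM with 2% horse serum, a low-serum medium that favours cell cycle exit and fusion into myotubes. GREM1 protein was added at 500 ng/ml and RNA was taken after 24 h. The remaining 3 arrays, from cells given BMP4 protein at 100 ng/ml in the same medium, entered the estimate of the spread, and their levels are set beside those of the members described. Where BMP4 arrays lie apart from the controls below, this describes levels of 3 against 3 arrays and is not a test result. The share of all genes whose 3 groups part in this way was not computed. The labels do not say whether replicates are separate cultures or how many mice gave the cells, so p-values measure only the spread between these samples, which may be technical. In cultures measured in bulk, fewer cells of a type and less RNA per cell cannot be told apart.

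GREM1, gremlin, is a secreted antagonist that binds BMP2, BMP4 and BMP7 and keeps them from their receptors. Bound BMP receptors phosphorylate SMAD1, SMAD5 and SMAD9 (also called SMAD8), which enter the nucleus with SMAD4 and switch on target genes, among them the ID factors, which block myogenic transcription factors, and the inhibitory SMADs, which dampen the pathway. In muscle, BMP signalling is known for keeping myoblasts dividing and for turning them towards bone-forming genes when strong.

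All values are log2 levels, and differences are GREM1 minus control on that scale with the standard error (SE) of the fit in limma, so that 1 is a doubling. A gene is said to rise or fall only where its Benjamini-Hochberg adjusted p in limma was under 0.05. Array medians lay between 5.00 and 5.12. The GREM1 arrays took 16 to 27.5 on the first principal component (42.2% of the variance) and the other 6 arrays lay below 0, while control replicate 1 stood apart on the second (20.9%) at 31.6. The filter level was each array's own 30th percentile over named genes, which most genes exceed, and is not a test of detection. All 10 myoblast markers measured were above this filter on all 6 arrays, from Pax7 at 7.59 to Chrna1 at 11.7 in the control mean. Their mean level was 8.89 to 9.27 on the control arrays and 9.28 to 9.48 with GREM1. Of markers of other cell types, 4 of 9 fibroblast, 4 of 10 endothelial, 4 of 8 leukocyte, 4 of 10 cartilage, 4 of 7 osteoblast, 6 of 8 Schwann cell, 6 of 10 adipocyte, 7 of 10 tendon and 8 of 10 pericyte or smooth muscle markers were above the filter on all 6 arrays. The tendon genes Scx and Tnc were among the highest, at 9.87 and 9.73 in the control mean. The fibroblast Col3a1 (7.37), the endothelial Egfl7 (5.94) and the leukocyte Cd68 (6.54) were also above the filter on all 6. The fibroblast Pdgfra and Dcn, the endothelial Cdh5 and Kdr and the leukocyte Ptprc and Adgre1 were not above it on all 6. The mean level of the fibroblast, endothelial and leukocyte lists stayed between 4.13 and 4.33 in both groups.

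GREM1 changed 735 genes (4.29% of those tested). Of these, 356 rose (2.08%) and 379 fell (2.21%), and the change was 2-fold or more for 113 (51 rises, 62 falls). Counts of calls in the gene lists below are to be read beside these shares of all genes. With each array centred on its median, 387 rose and 272 fell. The GREM1 and control arrays did not overlap for any of the 735, as for 24.0% of all genes tested. With the replicate number as a block, which compares arrays of the same number, 1985 genes passed, of which 956 rose and 1029 fell, and these include all 735. Omitting control replicate 1, 2 or 3 left 307, 687 or 267 calls, omitting GREM1 replicate 1, 2 or 3 left 248, 245 or 482, and omitting BMP4 replicate 1, 2 or 3 left 579, 486 or 898. Among the 735, 181 genes kept the call whichever of the 9 arrays was left out, 90 higher and 91 lower, and they are marked below as holding without any array. Genes of low level were called less often: 0.945% of the lowest tercile by mean level, 4.97% of the middle one and 6.95% of the highest.

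**Figure D1:**
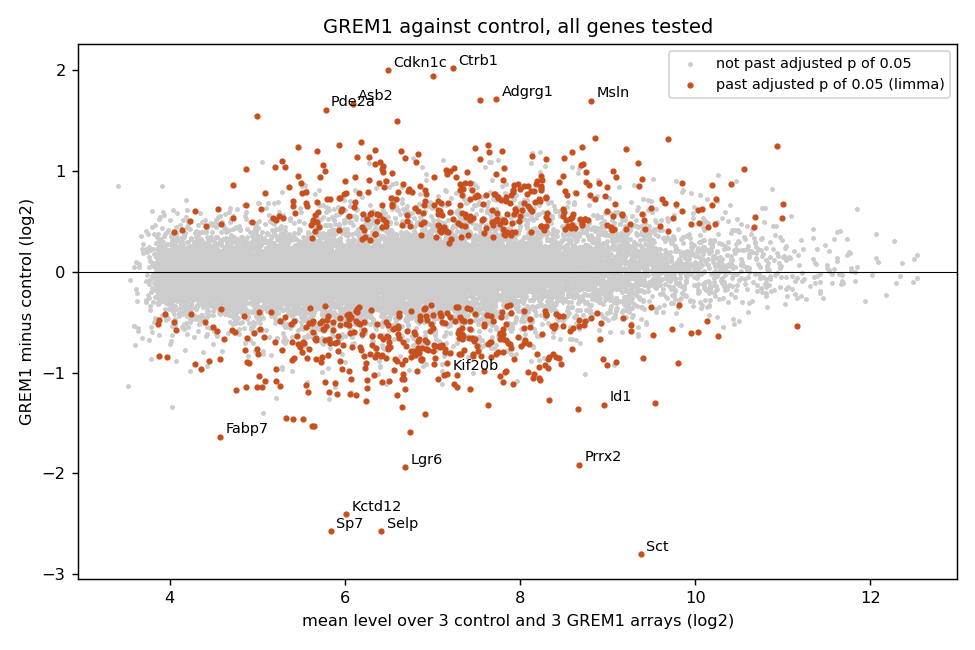
Each point is 1 of 17141 genes, with the mean level over the 6 arrays on the x axis and GREM1 minus control on the y axis (both log2). The 735 genes past an adjusted p of 0.05 (orange) spread to both sides, from Sct at -2.80 to Ctrb1 at 2.02.

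The largest falls were in a secreted hormone, an osteoblast transcription factor and an adhesion receptor. Sct, which encodes secretin, stood at 10.09, 10.86 and 11.40 on the 3 control arrays, at 7.51, 7.95 and 8.47 with GREM1 and at 11.64, 11.87 and 12.17 with BMP4. It fell by 2.80 ± 0.33 (6.98-fold lower, adjusted p = 0.00315), and replicate 1 was the lowest and replicate 3 the highest array of each group. Sp7, the osteoblast transcription factor osterix, was far tighter. Its levels were 7.10, 7.19 and 7.10 in the controls, 4.54, 4.65 and 4.48 with GREM1 and 9.17, 9.22 and 8.94 with BMP4, a fall of 2.57 ± 0.10 (5.96-fold lower, adjusted p = 4.63e-06) and the smallest p among the genes described here. Selp, which encodes the leukocyte-binding adhesion receptor P-selectin, went from 7.81, 8.02 and 7.27 to 5.23, 5.03 and 5.12, a fall of 2.57 ± 0.21 (adjusted p = 0.000541). In each of these genes the BMP4 arrays were the highest of the 9 and the GREM1 arrays the lowest, without overlap. In limma BMP4 minus control passed for Sp7 (adjusted p = 2.66e-05) and not for Sct (0.431) or Selp (0.122).

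Kctd12, which partners GABA-B receptors, was at 7.10, 7.0 and 7.56 in the controls and 4.64, 5.01 and 4.78 with GREM1 (a fall of 2.41 ± 0.19, adjusted p = 0.000541). Lgr6, a receptor for the Wnt-enhancing R-spondins, was at 7.60, 7.69 and 7.69 and 5.72, 5.60 and 5.84 (a fall of 1.94 ± 0.12, adjusted p = 0.000136). Fabp7, a fatty acid binding protein, was at 5.34, 5.40 and 5.43 and 3.79, 3.56 and 3.91 (adjusted p = 0.000301). No GREM1 array was above its filter level for Fabp7, so with those arrays set at that level, as for the other genes given with such a bound, it was at least 2.74-fold lower. With BMP4 the same genes stood at 8.05, 8.15 and 8.63, at 8.83, 8.61 and 9.05 and at 7.64, 7.94 and 7.67, again above every control array. In limma BMP4 minus control passed for Lgr6 (adjusted p = 0.0096) and Fabp7 (2.66e-05) and not for Kctd12 (0.0924). Car8, a carbonic anhydrase-related protein, fell by 1.59, Cdhr5, a protocadherin-like protein, by 1.45, the prolactin-family gene Prl2c3 by 1.42, the nuclear receptor Nr4a2 by 1.32, Dynap by 1.31 and the adhesion molecule Alcam by 1.28. These genes and Sct, Sp7 and Selp hold without any array, as did 15 of the 20 largest falls in all. The other 5 were Ifi204, Tmsb15a, Car3, Id1 and Cthrc1 (highest adjusted p = 0.169 in limma over the alternatives, for Ifi204). Id1 lost the call without GREM1 replicate 1, Ifi204 without control replicates 1, 2 or 3, BMP4 replicate 2 or GREM1 replicates 1, 2 or 3, Tmsb15a without control replicate 1 or GREM1 replicates 1, 2 or 3, Car3 without control replicates 1 or 2 or GREM1 replicates 1, 2 or 3 and Cthrc1 without GREM1 replicates 1 or 2.

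Among the rises, a digestive protease, a cell cycle inhibitor and an inhibitor of receptor tyrosine kinase signalling led. Ctrb1, a chymotrypsinogen best known from the pancreas, stood at 6.0, 6.28 and 6.40 in the controls and at 7.91, 8.32 and 8.51 with GREM1, a rise of 2.02 ± 0.17 (4.05-fold, adjusted p = 0.000541). Cdkn1c, which encodes the cyclin-dependent kinase inhibitor p57, was at 5.61, 5.29 and 5.59 and 7.39, 7.02 and 8.07, a rise of 2.00 ± 0.24 (3.99-fold, adjusted p = 0.00321). Adgrg1, an adhesion G protein-coupled receptor, was at 6.97, 6.96 and 6.68 and 8.39, 8.43 and 8.92, a rise of 1.71 ± 0.15 (adjusted p = 0.000726). Their BMP4 levels, 6.18, 5.92 and 6.22, 5.37, 5.35 and 4.96 and 6.89, 6.89 and 7.14, did not reach a GREM1 level on any array.

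Msln, mesothelin, a surface protein of mesothelial cells, stood at 7.81, 8.06 and 8.01 in the controls, at 9.37, 9.56 and 10.03 with GREM1 and at 7.01, 6.93 and 6.73 with BMP4, so that the 3 groups did not overlap and the controls lay in the middle (a rise of 1.69 ± 0.16 with GREM1, adjusted p = 0.00109). BMP4 minus control of Msln did not pass in limma (adjusted p = 0.0504). Asb2, the substrate receptor of a muscle ubiquitin ligase, was at 5.27, 5.18 and 5.32 and 6.71, 6.97 and 7.09 (a rise of 1.67 ± 0.11, adjusted p = 0.000175). Pde2a, a phosphodiesterase that cleaves cyclic nucleotides, was at 4.79, 5.02 and 5.12 and 6.47, 6.67 and 6.61 (a rise of 1.61 ± 0.13, adjusted p = 0.000541). Cyria, a RAC1-binding protein, rose by 1.49, Dag1, the dystroglycan that links the muscle cell to its basement membrane, by 1.33, Aif1l by 1.32, the transcriptional co-regulator Mn1 by 1.29, the ion transporter Slc12a2 by 1.23, the repressor Bcl6 by 1.22 and the neuronal pentraxin Nptx1 by 1.20. These genes hold without any array, as did 15 of the 20 largest rises. The other 5 were Dnase1l3, Tmem189, Traj43, Acta2 and Adssl1 (highest adjusted p = 0.149 in limma over the alternatives). Dnase1l3 lost the call without control replicates 2 or 3 or GREM1 replicates 1 or 2, Tmem189 without control replicates 1 or 3 or GREM1 replicates 1, 2 or 3, Traj43 without control replicates 1 or 3, BMP4 replicates 1, 2 or 3 or GREM1 replicates 1 or 3, Acta2 without GREM1 replicates 1, 2 or 3 and Adssl1 without control replicates 1 or 3 or GREM1 replicates 1 or 2.

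**Figure D2:**
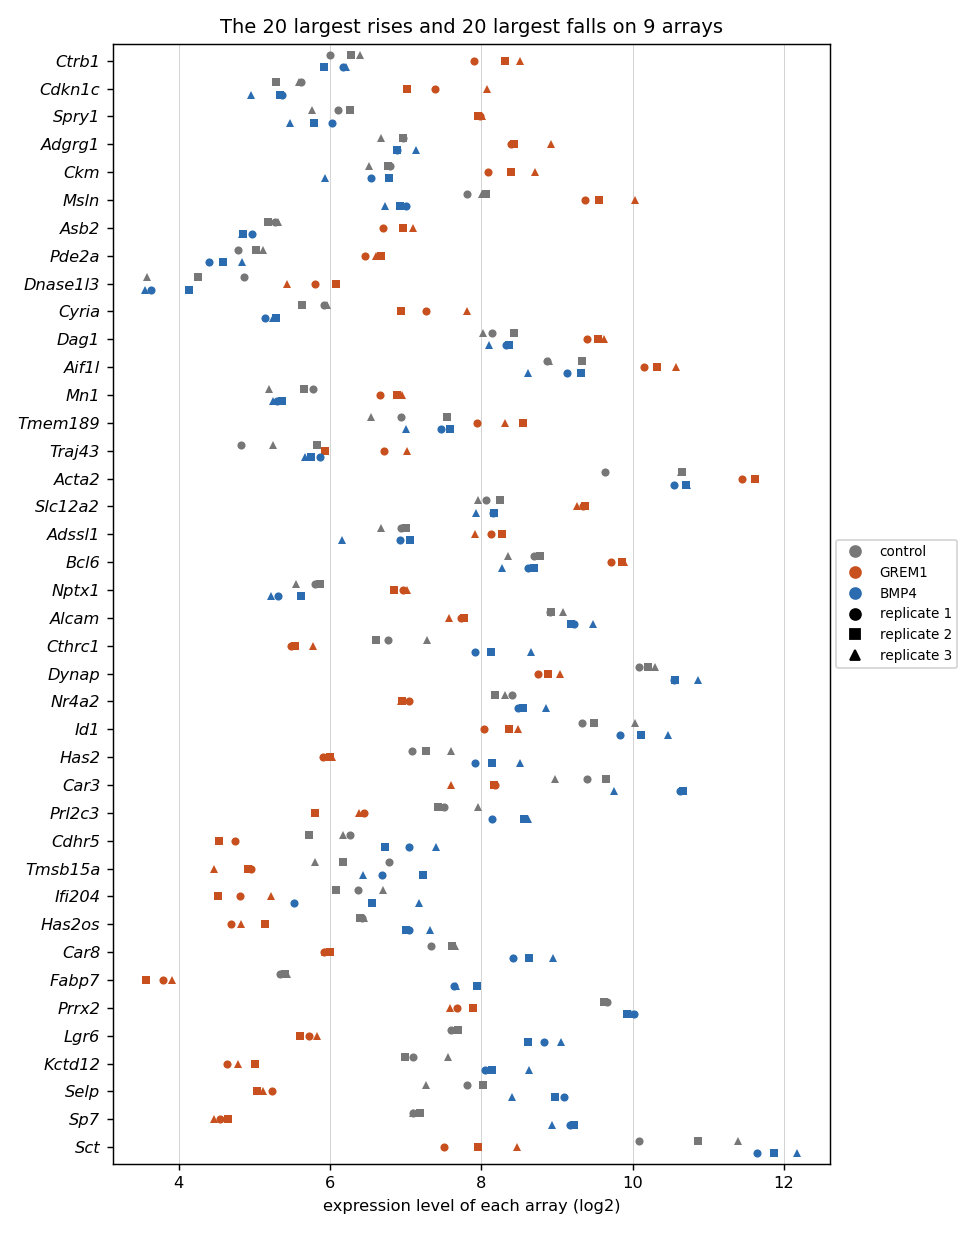
Levels (log2, x axis) of the 20 genes that rose most (top) and the 20 that fell most (bottom) with GREM1, on each control (grey), GREM1 (orange) and BMP4 (blue) array, with the marker shape giving the replicate number. The GREM1 markers lie apart from the control markers in every line, as the choice of these genes required, and replicate 2 of GREM1 (5.94) and of the controls (5.83) lie close together in Traj43.

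Many BMP-SMAD target genes fell with GREM1. Of 22 tested, 9 fell where 2.21% of all genes did, 21 lay below 0, and the median was -0.457 against -0.006 over all genes. This list, like the others, was chosen with earlier results of these data known, so its share is a description and no test. The inhibitory SMADs, which end the signal, both fell. Smad6 was at 6.25, 6.13 and 6.13 in the controls, 5.02, 5.34 and 4.57 with GREM1 and 7.06, 7.14 and 7.42 with BMP4, a fall of 1.20 ± 0.18 (adjusted p = 0.00784). Smad7 was at 7.66, 7.83 and 7.90, 6.83, 7.01 and 6.48 and 8.93, 8.93 and 9.08 in the same order, a fall of 1.03 ± 0.13 (adjusted p = 0.00451). For both, GREM1, control and BMP4 arrays formed 3 separate steps.

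Other transcription factors among the targets fell too. Prrx2, a homeobox gene of mesenchyme, went from 9.66, 9.62 and 9.62 to 7.68, 7.90 and 7.58, a fall of 1.92 ± 0.09 (adjusted p = 2.58e-05), with BMP4 at 10.01, 9.92 and 9.99. Dlx2, a distal-less homeobox gene, went from 7.14, 7.37 and 7.46 to 6.11, 6.33 and 6.57 (a fall of 0.99 ± 0.14, adjusted p = 0.00784) and Dlx3 from 6.82, 7.13 and 6.65 to 6.18, 6.20 and 5.98 (a fall of 0.74 ± 0.12, adjusted p = 0.0135). Hey1, a repressor that both Notch and BMP signals induce, went from 5.98, 5.95 and 6.0 to 5.05, 5.18 and 5.40 (a fall of 0.77 ± 0.09, adjusted p = 0.00343). Hes1, its relative, fell by 0.40 (adjusted p = 0.0401). No GREM1 array of these genes reached a control level, as in every called gene that fell, and Sp7, Prrx2, Smad6, Smad7, Dlx2, Dlx3 and Hey1 hold without any array.

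The ID factors, the best known BMP targets, were less even. Id1 stood at 9.33, 9.49 and 10.04 in the controls and 8.04, 8.37 and 8.48 with GREM1, a fall of 1.32 ± 0.21 (adjusted p = 0.0117, and 0.0556 without GREM1 replicate 1). Id2 stood at 8.43, 8.37 and 8.76 and 7.53, 7.56 and 8.27 (-0.73 ± 0.21, adjusted p = 0.0815 in limma, and 0.00298 with the replicate block). Id3 stood at 7.39, 8.59 and 9.12 and 7.18, 7.43 and 8.05 (-0.81 ± 0.41, adjusted p = 0.307 in limma, and 0.0251 with the block). In all 3 genes each GREM1 array was lower than the control array of the same number, but control replicate 1 of Id3 lay more than 1 unit below the other controls and within the range of the GREM1 arrays. Id4 (-0.18 ± 0.12), Atoh8 (-0.18 ± 0.14), Bambi (-0.02 ± 0.12) and Msx1 (-0.08 ± 0.12), which are BMP targets in other cells, did not pass. The count of called targets was 7 to 10 whichever array was left out, and 12 with the block.

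Ligands, receptors and antagonists of the BMP family did not move one way. Of 43 tested, 3 rose and 3 fell (14.0% called, 4.29% over all genes), with a median of 0.009, and 4 rose and 7 fell with the replicate block. The Bmp4 transcript did not pass the filter. The Grem1 transcript stood at 7.57, 7.44 and 7.61 in the controls, at 6.79, 6.76 and 6.71 in cells given the protein and at 7.69, 7.75 and 7.29 with BMP4, a fall of 0.79 ± 0.12 with GREM1 (adjusted p = 0.00887). Crim1, a membrane protein that binds BMPs, stood at 7.08, 7.07 and 7.39, 6.33, 6.31 and 6.36 and 7.85, 7.87 and 8.16 in the same order, a fall of 0.85 ± 0.12 (adjusted p = 0.00563). Both antagonist genes were thus lowest on the GREM1 arrays, Crim1 with 3 separate steps and Grem1 with BMP4 arrays that overlapped the controls. BMP4 minus control passed in limma for neither Crim1 (adjusted p = 0.0504) nor Grem1 (0.954). The secreted glycoprotein Fstl1 fell by 0.82 (adjusted p = 0.0373) and lost the call without control replicates 1, 2 or 3, BMP4 replicate 1 or GREM1 replicates 1 or 2.

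The 3 rises were in signal-relaying members. Rgma, a BMP co-receptor, went from 6.78, 6.63 and 6.55 to 7.63, 7.52 and 7.84 (a rise of 1.01 ± 0.10, adjusted p = 0.00157), and Rgmb, its relative, rose by 0.45 (adjusted p = 0.0447). Smad3, which relays TGF-beta and activin signals, went from 6.88, 6.75 and 6.47 to 7.69, 7.75 and 7.65 (a rise of 1.00 ± 0.14, adjusted p = 0.0066). Grem1, Crim1, Rgma and Smad3 hold without any array. The receptor genes Bmpr1a (0.08 ± 0.07), Bmpr2 (-0.12 ± 0.11) and Acvr1 (-0.22 ± 0.09) and the BMP-relaying Smad1 (0.01 ± 0.10), Smad5 (0.13 ± 0.08) and Smad4 (-0.03 ± 0.10) did not pass. Mstn, which encodes the muscle growth inhibitor myostatin, was at 7.85, 7.96 and 7.19 in the controls and 6.38, 6.52 and 6.76 with GREM1, without overlap, as 24.0% of all genes (-1.12 ± 0.29, adjusted p = 0.0635 in limma, and 0.0198 with the block). The receptors, Smad1, Smad4, Smad5 and Mstn were picked out after their values were seen. The list of TGF-beta ligands, receptors and targets had 1 rise among 23 (4.35% called, 4.29% over all genes) and a median of -0.036. That rise was in the matrix protein Thbs1 (0.48, adjusted p = 0.043), which lost the call without control replicates 1, 2 or 3, BMP4 replicates 1 or 2 or GREM1 replicates 1, 2 or 3.

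**Figure D3:**
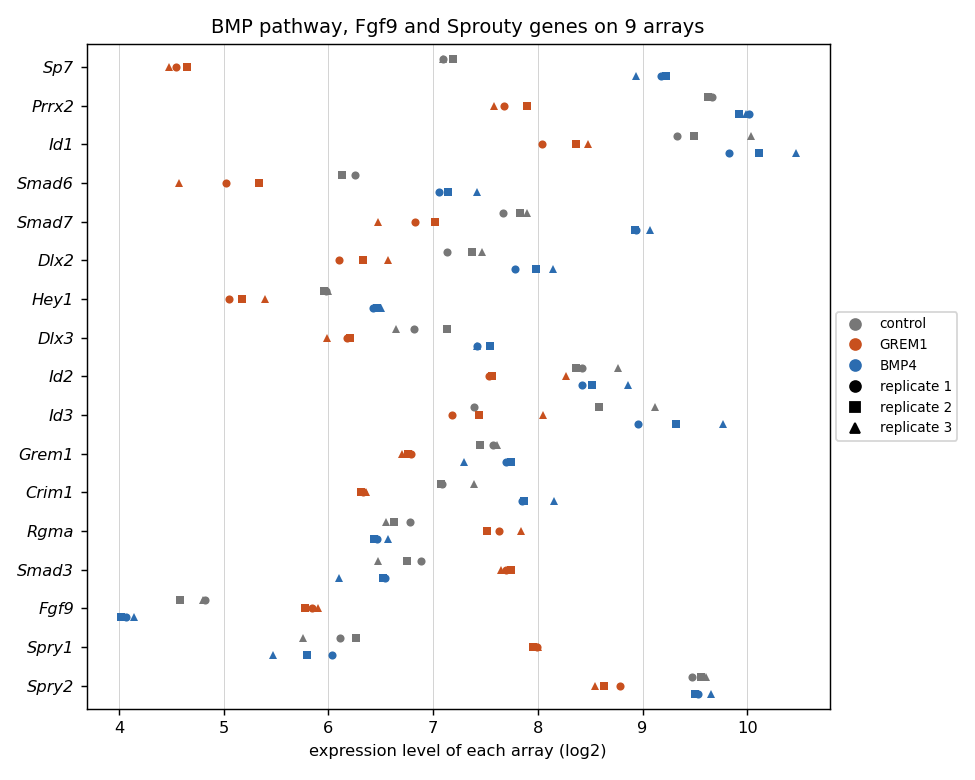
Levels (log2, x axis) of BMP target, BMP antagonist, SMAD, Fgf9 and Sprouty genes on each control (grey), GREM1 (orange) and BMP4 (blue) array, with the marker shape giving the replicate number. Sp7, Prrx2, Smad6, Smad7, Dlx2, Hey1 and Crim1 form 3 steps with GREM1 lowest, Fgf9 forms 3 steps with GREM1 highest, and Id3 of control replicate 1 (7.39) lies among the GREM1 arrays. Steps describe levels, and BMP4 minus control did not pass in limma for Prrx2, Dlx2, Hey1 or Crim1, while it passed for Sp7, Smad7 and Fgf9.

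Genes of FGF and ERK signalling changed in both directions. Sprouty and Spred proteins, dual-specificity phosphatases and early growth response factors are induced by ERK and mostly restrain it. Of 33 such genes, 2 rose and 4 fell (18.2% called, 4.29% over all genes), with a median of -0.073. Spry1 rose from 6.11, 6.26 and 5.76 to 7.99, 7.95 and 8.01, by 1.94 ± 0.16 (3.84-fold, adjusted p = 0.000541), with the 3 GREM1 arrays close together and BMP4 at 6.03, 5.80 and 5.47. Its relative Spry2 fell from 9.48, 9.56 and 9.61 to 8.79, 8.63 and 8.55, by 0.89 ± 0.09 (adjusted p = 0.00144), with BMP4 at 9.53, 9.51 and 9.66. The Sprouty genes thus moved apart, and the BMP4 arrays of both overlapped the controls.

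Myc, a growth-promoting transcription factor, fell from 9.84, 9.81 and 9.85 to 9.23, 9.37 and 9.03, by 0.62 ± 0.10 (adjusted p = 0.0117). Its BMP4 arrays (9.52, 9.45 and 9.65) lay below every control, but BMP4 minus control did not pass in limma (adjusted p = 0.520). Egr3 rose by 0.72 (adjusted p = 0.0164), Ier3 fell by 0.64 (adjusted p = 0.0264) and the ERK phosphatase gene Dusp5 fell by 0.39 (adjusted p = 0.034). Spry1, Spry2 and Myc hold without any array. Egr3 lost the call without control replicates 1 or 3 or GREM1 replicate 2 and Ier3 without control replicates 1, 2 or 3 or GREM1 replicates 1 or 3, and the count of 6 was 3 without control replicate 1 or 3, 4 without any GREM1 array, and 10 with the replicate block.

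Among 39 secreted growth factors 2 rose and 3 fell (12.8% called, 4.29% over all genes), with a median of -0.104, and 5 rose and 9 fell with the replicate block. Fgf9, a fibroblast growth factor, rose from 4.83, 4.58 and 4.80 to 5.85, 5.77 and 5.90, by 1.10 ± 0.09 (2.15-fold, adjusted p = 0.000541), and stood at 4.07, 4.01 and 4.14 with BMP4. Its 9 arrays formed 3 steps in the reverse order of Smad6 and Smad7. Hbegf, an EGF receptor ligand, fell from 7.44, 7.61 and 7.86 to 6.97, 6.97 and 6.98, by 0.66 ± 0.11 (adjusted p = 0.0111). The lymphatic growth factor Vegfc fell by 0.73 (adjusted p = 0.0158) and the macrophage growth factor Csf1 by 0.90 (adjusted p = 0.0164), while Ccn4 rose by 0.43 (adjusted p = 0.0353). Vegfc lost the call without control replicate 3 or GREM1 replicate 2, Csf1 without control replicate 3 or GREM1 replicates 1 or 2 and Ccn4 without control replicates 1, 2 or 3, BMP4 replicate 2 or GREM1 replicates 1, 2 or 3, while Fgf9 and Hbegf hold without any array. The count of 5 was 2 without control replicate 3 or GREM1 replicate 2. Of 26 growth factor receptors (7.69% called, 4.29% over all genes) Igf1r, the IGF1 receptor, and Fgfr1 rose, by 0.60 (adjusted p = 0.0211) and 0.50 (adjusted p = 0.0402). Igf1r lost the call without control replicates 1 or 3 or GREM1 replicates 1 or 2 and Fgfr1 without control replicates 1 or 3, BMP4 replicates 1 or 2 or GREM1 replicates 1, 2 or 3, and with the replicate block 6 receptors rose and 2 fell. The IGF-binding protein Igfbp3 rose by 0.62 (adjusted p = 0.0134) and lost the call without control replicate 3 or GREM1 replicates 1 or 2, and Igfbp7 fell by 0.78 (adjusted p = 0.0493) and lost it without control replicates 1 or 3, BMP4 replicates 1 or 2 or GREM1 replicates 1, 2 or 3.

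Mitosis genes were lower with GREM1 as a group. All 72 tested had values below 0, with a median of -0.662 against -0.006 over all genes, and 59 had GREM1 arrays that did not overlap the controls, where 24.0% of all genes had. Of the 72, 23 fell in limma (31.9%, against 2.21% of all genes), and 63 fell with the replicate block. Relative to the control mean, the list's median was -0.150, -0.122 and 0.286 on the 3 control arrays and -0.760, -0.758 and -0.425 on the GREM1 arrays. Control replicate 3 and GREM1 replicate 3 were each the highest of their group, and the median difference within numbers 1, 2 and 3 was -0.596, -0.626 and -0.73. The 23 calls became 6, 17 or 2 when control replicate 1, 2 or 3 was omitted, 4, 3 or 17 for GREM1 replicate 1, 2 or 3, and 17, 12 or 33 for BMP4 replicate 1, 2 or 3. The median stayed between -0.747 and -0.510.

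Foxm1, the transcription factor that drives mitosis genes, was at 8.11, 7.74 and 8.07 in the controls and at 7.08, 7.18 and 7.13 with GREM1, a fall of 0.84 ± 0.12 (adjusted p = 0.00738). Kif20b, a kinesin of the dividing cell's midzone, was at 7.80, 7.44 and 7.77 and 6.62, 6.54 and 6.82, a fall of 1.01 ± 0.15 (adjusted p = 0.00747). These are the members that hold without any array, and their BMP4 arrays (7.89, 7.70 and 8.04 for Foxm1, 7.48, 7.51 and 7.92 for Kif20b) overlapped the controls. Plk4, the kinase that starts centriole copying, fell by 0.73 (adjusted p = 0.0159), the chromosome passenger protein Incenp by 0.65 (adjusted p = 0.0168) and the spindle protein Gtse1 by 0.67 (adjusted p = 0.0196). Plk4 lost the call without control replicates 1 or 3 or GREM1 replicate 2, Incenp without control replicate 3 or GREM1 replicate 2 and Gtse1 without control replicate 3 or GREM1 replicates 1 or 2. Mki67, the proliferation antigen, went from 8.66, 8.61 and 9.07 to 7.93, 7.82 and 8.14, a fall of 0.81 ± 0.17 (adjusted p = 0.0317) that was lost without control replicates 1 or 3 or GREM1 replicates 1 or 2 and with arrays centred on their medians. Cdk1, the kinase that starts mitosis, stood at 8.92, 9.04 and 9.64 and 8.54, 8.48 and 8.83, without overlap, as 24.0% of all genes, and did not pass (-0.58 ± 0.24, adjusted p = 0.206 in limma, and 0.0133 with the block).

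Mitosis genes are known to share a promoter element, the cell cycle homology region (CHR), through which the DREAM complex silences them in resting cells and MuvB complexes with MYB and FOXM1 activate them in dividing ones. RefSeq promoters (GRCm38.p6, 250 bases before to 50 after the start) were matched by symbol for 61 of the 72 genes. The CHR, searched as TTTGAA or TTCGAA on both strands, occurred in 45 of 61 (73.8%) against 19.5% of all 27025 promoters of the same length. Between 50 bases before and 50 after the start it occurred in 40 (65.6%) against 5.31%. CCAAT, the box of the NF-Y factor that often sits upstream of a CHR, occurred in 41 (67.2%) against 38.0%, and 32 (52.5%) held both a CHR near the start and CCAAT, against 2.30%. The 40 genes with a CHR near the start had a median difference of -0.624 (-1.161 to -0.126) and the 21 without one -0.68 (-1.093 to -0.207). A match describes letters in this window and is not a measured binding site.

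The promoters below are those of 6 of the 11 called mitosis genes with a CHR near the start, the 6 of smallest p among those whose CHR lies whole within the printed stretch (that of Sgo1, Knl1 and Ndc80 does not), and of Plk4, the one of smallest p with a matched promoter and no CHR in it, so that the element can be seen in place. Each line runs 5′ to 3′ on the gene's strand from 120 bases before to 30 after the start in GRCm38.p6, with CHR and CCAAT matches of either strand in capitals (TTCAAA and ATTGG are the reverse complements of TTTGAA and CCAAT).
Kif20b, chr19:34922238-34922387, plus strand: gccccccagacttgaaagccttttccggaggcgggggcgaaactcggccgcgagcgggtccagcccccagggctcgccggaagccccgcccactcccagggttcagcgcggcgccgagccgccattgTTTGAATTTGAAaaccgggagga
Ska3, chr14:57826134-57826283, minus strand: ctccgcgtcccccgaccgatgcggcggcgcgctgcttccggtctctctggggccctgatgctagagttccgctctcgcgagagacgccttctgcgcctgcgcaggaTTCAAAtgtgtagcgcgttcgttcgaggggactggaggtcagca
Kif22, chr7:127042391-127042540, minus strand: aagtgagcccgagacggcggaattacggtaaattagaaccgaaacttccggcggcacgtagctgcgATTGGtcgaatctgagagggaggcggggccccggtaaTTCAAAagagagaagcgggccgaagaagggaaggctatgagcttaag
Ttk, chr9:83834569-83834718, plus strand: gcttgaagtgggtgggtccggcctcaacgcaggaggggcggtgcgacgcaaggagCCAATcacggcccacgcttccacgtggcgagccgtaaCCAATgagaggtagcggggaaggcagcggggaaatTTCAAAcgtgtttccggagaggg
Bub1, chr2:127831830-127831979, minus strand: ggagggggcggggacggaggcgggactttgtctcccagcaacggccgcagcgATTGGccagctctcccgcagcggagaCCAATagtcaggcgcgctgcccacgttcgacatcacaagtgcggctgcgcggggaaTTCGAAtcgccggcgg
Kif23, chr9:61946770-61946919, minus strand: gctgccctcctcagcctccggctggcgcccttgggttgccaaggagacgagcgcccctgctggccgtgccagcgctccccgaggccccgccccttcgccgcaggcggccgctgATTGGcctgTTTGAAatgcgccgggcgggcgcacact
Plk4, chr3:40799831-40799980, plus strand: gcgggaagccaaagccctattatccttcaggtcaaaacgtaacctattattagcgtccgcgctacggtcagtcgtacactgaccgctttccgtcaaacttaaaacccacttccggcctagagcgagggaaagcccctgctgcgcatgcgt
Kif20b carries 2 CHRs end to end after the start and no CCAAT in this stretch. Ttk, the spindle checkpoint kinase, and Bub1, its checkpoint partner, carry 1 CHR and 2 CCAAT boxes each, and the kinesins Kif22 and Kif23 carry 1 of each. Ska3, a kinetochore protein, has the CHR alone. Of these genes Ska3 fell by 1.09 (adjusted p = 0.0222), Kif22 by 0.69 (adjusted p = 0.0275), Ttk by 0.69 (adjusted p = 0.0382), Bub1 by 0.82 (adjusted p = 0.0467) and Kif23 by 0.82 (adjusted p = 0.0483).

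DNA replication and G1/S genes were lower too. Of 69 tested, 68 lay below 0, with a median of -0.443. In limma 15 fell and 1 rose (23.2% called, 4.29% over all genes), and 42 fell and 1 rose with the replicate block. Tyms, the thymidylate synthase that makes a DNA building block, went from 8.42, 8.04 and 8.53 to 7.29, 7.21 and 7.53, a fall of 0.99 ± 0.14 (adjusted p = 0.00784). Chaf1a, which places histones on new DNA, fell by 0.68 (adjusted p = 0.0145), Pole, a catalytic subunit of a DNA polymerase, by 0.81 (adjusted p = 0.0164) and Dscc1, which helps load the replication clamp, by 0.72 (adjusted p = 0.016). The member that rose was E2f2, a transcription factor of the G1/S switch, from 5.0, 5.17 and 5.20 to 5.75, 5.77 and 6.19 (a rise of 0.78 ± 0.13, adjusted p = 0.0116). Tyms and E2f2 hold without any array. As in mitosis, the calls moved with single arrays, and the 16 calls became 8, 11 or 2 when control replicate 1, 2 or 3 was omitted, 3, 2 or 12 for GREM1 replicate 1, 2 or 3, and 13, 8 or 23 for BMP4 replicate 1, 2 or 3. The median stayed between -0.496 and -0.347. Of 28 histone genes (7.14% called, 4.29% over all genes), whose median was -0.391, H4c12 fell by 0.66 (adjusted p = 0.012) and H2bc8 rose by 0.66 (adjusted p = 0.0186). H4c12 lost the call without GREM1 replicates 1 or 2 and H2bc8 without control replicates 1 or 3 or GREM1 replicates 1 or 2, and 7 fell and 1 rose with the block.

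CDK inhibitors and antiproliferative genes had 3 rises among 21 (14.3%, against 2.08% of all genes) and a median of 0.1. Beside Cdkn1c, the stress-induced Gadd45b rose from 6.49, 7.33 and 7.13 to 8.03, 8.11 and 8.17, by 1.12 ± 0.20 (adjusted p = 0.017), and lost the call without GREM1 replicates 1, 2 or 3. Gas1 rose by 0.33 (adjusted p = 0.0476) and lost it without any one of the 9 arrays. Cdkn1a, which encodes p21, was high in both groups, at 10.84, 11.95 and 11.82 and 12.14, 12.17 and 12.16, and did not pass (0.62 ± 0.24, adjusted p = 0.188). Cdkn1c was the only called gene of the 3 that holds without any array, and the count of 3 was 1 without any one GREM1 array.

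**Figure D4:**
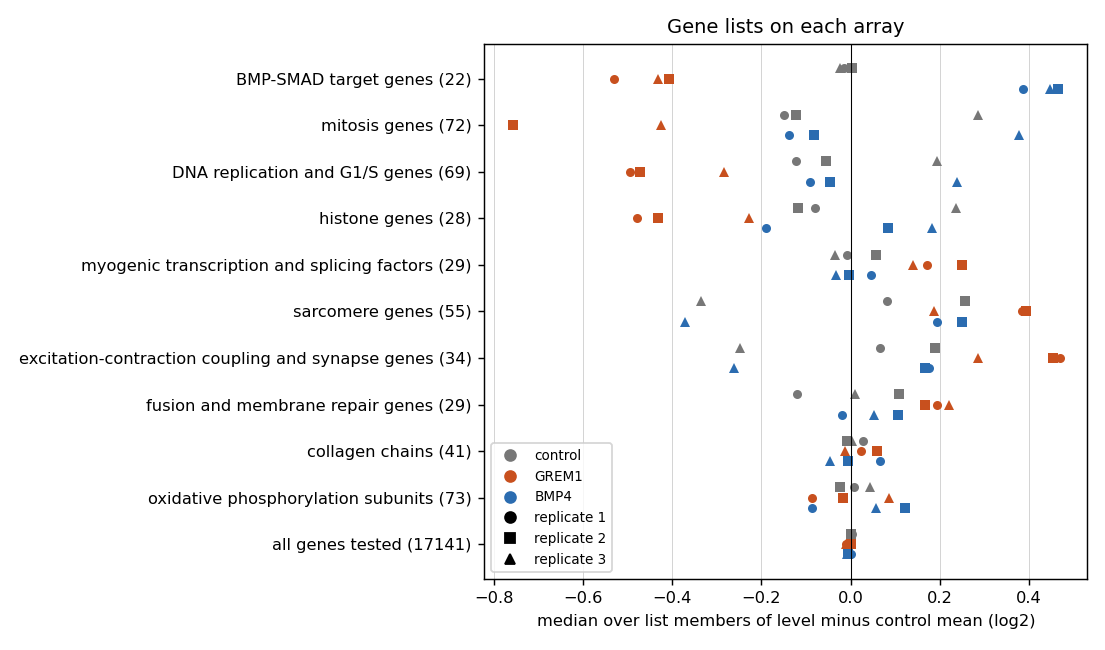
For each gene list (number of genes tested in brackets) and each array, the median over its members of the level minus the control mean (log2, x axis), with control arrays grey, GREM1 orange and BMP4 blue and the marker shape giving the replicate number. BMP-SMAD targets part all 3 groups, mitosis genes part GREM1 from the rest, and replicate 3 of every group (triangles) is the highest of its group in mitosis genes and the lowest in sarcomere genes.

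Most muscle differentiation genes lay higher with GREM1, few passed the test, and there was a spread between replicates that ran through both groups. Of 55 sarcomere genes, the parts of the contractile apparatus, 46 lay above 0, with a median of 0.321. In limma 3 rose (5.45%, against 2.08% of all genes), and 17 with the replicate block. Of 34 genes of excitation-contraction coupling and the neuromuscular synapse, 31 lay above 0, with a median of 0.396, and 4 rose (11.8%, and 17 genes with the block). Of 29 fusion and membrane repair genes 5 rose (17.2%, against 2.08% of all genes), with a median of 0.221, and 11 rose and 1 fell with the block. Of 29 myogenic transcription and splicing factors 6 rose (20.7%), with a median of 0.208, and 8 rose and 2 fell with the block. The sarcomere list stood at 0.081, 0.256 and -0.335 on the control arrays and at 0.385, 0.393 and 0.187 with GREM1, relative to the control mean, so GREM1 replicate 3 lay below control replicate 2. Within numbers the median difference was 0.276, 0.138 and 0.442.

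Ckm, the muscle creatine kinase, was the sarcomere-list gene that holds without any array. It stood at 6.80, 6.77 and 6.52 in the controls, 8.09, 8.39 and 8.71 with GREM1 and 6.55, 6.78 and 5.93 with BMP4, a rise of 1.70 ± 0.22 (3.25-fold, adjusted p = 0.00433). Unc45b, a myosin chaperone, rose by 1.20 (adjusted p = 0.0221) and lost the call without control replicates 1 or 3 or GREM1 replicates 1, 2 or 3. Trim55, a sarcomere-bound ubiquitin ligase, rose by 0.72 (adjusted p = 0.0479) and lost it without control replicates 1 or 3, BMP4 replicates 1 or 2 or GREM1 replicates 1, 2 or 3. The count of 3 was 1 without control replicate 1 or 3 or any one GREM1 array, and 6 without BMP4 replicate 3. Among the coupling and synapse genes, Chrng, the fetal acetylcholine receptor subunit, rose from 10.52, 10.85 and 10.63 to 11.25, 11.37 and 11.39, by 0.67 ± 0.11 (adjusted p = 0.0126), lost without control replicate 3 or GREM1 replicate 2. The calcium pump Atp2a1 rose by 0.85 (adjusted p = 0.0239), Colq, which anchors acetylcholinesterase, by 0.62 (adjusted p = 0.0258) and the cation channel Tmem38a by 1.12 (adjusted p = 0.0415). These last 3 lost the call without control replicate 1 or 3 or any one GREM1 array (Tmem38a also without BMP4 replicate 1). The count of 4 was 1 without control replicate 1 or GREM1 replicate 1 or 3, 0 without control replicate 3 or GREM1 replicate 2, and 7 without BMP4 replicate 3.

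The regulators were uneven. Mef2a, a transcription factor of muscle differentiation, went from 9.84, 10.05 and 10.05 to 10.76, 10.67 and 11.10, a rise of 0.87 ± 0.12 (adjusted p = 0.00602), and holds without any array. Its relative Mef2d rose by 0.88 (adjusted p = 0.0199), and the serum response factor Srf by 0.47 (adjusted p = 0.0163), the splicing regulator Rbm38 by 0.60 (adjusted p = 0.0267), Tead1 by 0.42 (adjusted p = 0.0388) and Tcf4 by 0.42 (adjusted p = 0.0447). Without control replicate 3 or GREM1 replicate 1 or 2, the count of 6 was 1, and it was 2 without control replicate 1, and 3 without BMP4 replicate 2 or GREM1 replicate 3. Myog, which marks differentiating cells, stood at 9.88, 10.46 and 9.69 in the controls and 10.75, 11.05 and 10.94 with GREM1, without overlap, as 24.0% of all genes. It passed with the replicate block and without BMP4 replicate 3 (0.90 ± 0.27, adjusted p = 0.0946 in limma, and 0.0167 with the block). Myod1, the master regulator of the lineage, stood at 9.02, 9.39 and 9.63 and 9.38, 9.62 and 9.84, overlapping (0.27 ± 0.17, adjusted p = 0.419 in limma). Myf5, a factor of dividing myoblasts, stood at 7.40, 7.74 and 8.34 and 6.58, 6.85 and 7.51, each GREM1 array below the control of its number but the groups overlapping (-0.85 ± 0.29, adjusted p = 0.144 in limma, and 0.000973 with the block). Pax7, the satellite cell factor, stood at 7.43, 7.63 and 7.73 and 7.39, 7.19 and 7.59 (-0.20 ± 0.15, adjusted p = 0.504 in limma).

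Among called members of the fusion, integrin and dystroglycan lists, 4 kept their calls. Cdh15, the muscle M-cadherin, went from 7.60, 8.05 and 7.75 to 8.72, 8.67 and 8.72 (a rise of 0.91 ± 0.11, adjusted p = 0.00347), with BMP4 at 7.5, 7.52 and 7.40. The tetraspanin Cd82 went from 7.5, 7.71 and 7.56 to 8.34, 8.53 and 8.36 (a rise of 0.82 ± 0.10, adjusted p = 0.00336). Itga7, the laminin-binding integrin of muscle, went from 8.31, 8.79 and 8.58 to 9.52, 9.55 and 9.60 (a rise of 1.00 ± 0.12, adjusted p = 0.00321). With Dag1, the laminin-binding dystroglycan, these 4 hold without any array, and no GREM1 array overlapped a control in any of them, as in every called gene. The fusion peptide Mymx rose by 1.02 (adjusted p = 0.0419), the membrane repair protein Dysf by 0.95 (adjusted p = 0.028) and Ncam1 by 0.53 (adjusted p = 0.0485), each lost without control replicate 1 or 3 or any one GREM1 array, and Mymx and Ncam1 also without BMP4 replicate 1 or 2. The count of 5 fusion genes was 2 without control replicate 1 or 3 or GREM1 replicate 1 or 2, and 3 without BMP4 replicate 1 or 2 or GREM1 replicate 3. In the dystrophin complex Sntb2, a syntrophin, fell by 0.61 (adjusted p = 0.0171), lost without control replicates 1 or 3 or GREM1 replicate 1. Of 21 Asb and muscle ubiquitin ligase genes 3 rose (14.3%, against 2.08% of all genes): Asb2, Asb7 (0.34) and the atrophy-linked Fbxo32. Fbxo32 went from 6.77, 6.97 and 7.07 to 7.54, 7.74 and 7.98 (a rise of 0.82 ± 0.13, adjusted p = 0.00972) and stood at 6.31, 6.37 and 6.15 with BMP4. Fbxo32 and Asb2 hold without any array, and Asb7 lost the call without control replicates 1, 2 or 3, BMP4 replicate 2 or GREM1 replicates 1, 2 or 3.

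Of 30 matricellular, hyaluronan and fibulin genes, 3 fell and 1 rose (13.3% called, 4.29% over all genes). Has2, the main hyaluronan synthase, went from 7.09, 7.27 and 7.60 to 5.91, 6.0 and 6.03, a fall of 1.34 ± 0.16 (adjusted p = 0.00343), and its antisense transcript Has2os from 6.42, 6.40 and 6.45 to 4.70, 5.14 and 4.82, a fall of 1.53 ± 0.13 (adjusted p = 0.000541). Has2os overlaps Has2, and whether probes keep the strands apart is not given in the sources used here. Vcan, the hyaluronan-binding proteoglycan versican, went from 8.16, 8.11 and 8.35 to 7.5, 7.33 and 7.40, a fall of 0.80 ± 0.11 (adjusted p = 0.00551). The 3 genes hold without any array, and Aspn, the remaining fall of the list, was not above the filter level on any GREM1 array (at least 1.37-fold lower, adjusted p = 0.0284), while Thbs1 rose. Without control replicate 3, BMP4 replicate 2 or GREM1 replicate 1 or 2 that count of 4 was 2. Loxl1, a cross-linker of elastin, rose from 6.61, 7.15 and 6.93 to 7.72, 7.86 and 7.68, by 0.86 ± 0.13 (adjusted p = 0.00829), and holds without any array. Of 41 collagen chains 0 passed in limma, while an unadjusted p under 0.05 held for 3 upward and 3 downward differences, and 1 was higher and 1 lower with the replicate block.

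Guidance and migration receptors were changed in both directions. Of 63 axon guidance genes, cues that steer growing axons and migrating cells, 3 rose and 5 fell, with a median of 0.011, and 8 rose and 9 fell with the replicate block. The semaphorin Sema6d went from 7.69, 7.78 and 7.94 to 6.88, 6.52 and 6.68, a fall of 1.11 ± 0.12 (adjusted p = 0.00267), while the semaphorin receptor Plxna2 went from 8.23, 8.30 and 7.97 to 9.33, 9.36 and 8.97, a rise of 1.06 ± 0.12 (adjusted p = 0.00321). The netrin Ntn1 rose by 0.78 (adjusted p = 0.0267) and its receptor Unc5b fell by 0.85 (adjusted p = 0.0251). Sema6d and Plxna2 hold without any array. Ntn1 lost the call without control replicates 1, 2 or 3 or GREM1 replicates 1 or 2 and Unc5b without control replicates 1, 2 or 3 or GREM1 replicates 1, 2 or 3, and the 8 calls became 2, 3 or 3 when control replicate 1, 2 or 3 was omitted and 2, 2 or 5 for GREM1 replicate 1, 2 or 3. Cxcr4, the chemokine receptor that guides migrating myoblasts, went from 7.25, 7.37 and 6.92 to 6.09, 6.16 and 6.10, a fall of 1.07 ± 0.14 (adjusted p = 0.00413), with BMP4 at 7.74, 8.08 and 7.67. Cxcr4 was the 1 gene called of 32 chemokines and their receptors (3.12%, against 4.29% of all genes). Its ligand Cxcl12 stood at 8.22, 8.49 and 9.0 and 7.49, 7.46 and 8.10 and passed with the replicate block and with array weights (-0.88 ± 0.26, adjusted p = 0.0898 in limma, and 0.000973 with the block).

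In the Notch pathway, which keeps satellite cells undifferentiated, Lfng, a glycosyltransferase that tunes Notch receptors, went from 6.90, 6.89 and 6.74 to 5.66, 5.99 and 5.81, a fall of 1.02 ± 0.11 (adjusted p = 0.00223), and holds without any array. The receptor Notch1 rose by 0.52 (adjusted p = 0.0124) and Dtx4 by 0.56 (adjusted p = 0.0168), the former lost without GREM1 replicate 1 or 2 and the latter without GREM1 replicate 1. The count of 3 called among 23 (13.0%, against 4.29% of all genes) was 1 without GREM1 replicate 1 and 2 without GREM1 replicate 2. Hey1 and Hes1, which Notch also induces, fell as given above. In the Wnt pathway Lef1, a nuclear partner of beta-catenin, went from 6.79, 6.78 and 6.78 to 7.43, 7.26 and 7.45, a rise of 0.60 ± 0.08 (adjusted p = 0.00641), with BMP4 at 6.28, 6.22 and 6.39 below every control. With Lgr6 it holds without any array. The secreted modulator Sfrp2 fell by 1.03 (adjusted p = 0.0152), lost without control replicates 1 or 3 or GREM1 replicate 1, and the ligand Wnt5a, above the filter level on 1 of 3 GREM1 arrays, by 0.58 (adjusted p = 0.0416), lost without control replicates 1, 2 or 3, BMP4 replicates 1 or 2 or GREM1 replicates 1 or 2. Fzd6, a Wnt receptor, fell by 0.50 (adjusted p = 0.0481), lost without control replicates 1 or 3, BMP4 replicates 1, 2 or 3 or GREM1 replicates 1, 2 or 3. Of 53 Wnt genes 5 were called (9.43%, against 4.29% of all genes). That count was 2 without control replicate 1 or 3 or GREM1 replicate 1, and 3 without GREM1 replicate 2 or BMP4 replicate 1 or 2.

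Prostaglandin genes and single enzymes completed the steadier changes. Ptgs2, the inducible cyclooxygenase, went from 7.81, 8.06 and 8.15 to 6.88, 6.78 and 6.89, a fall of 1.16 ± 0.13 (adjusted p = 0.00289), with BMP4 at 9.02, 9.35 and 9.48. The prostaglandin E2 receptor gene Ptger4 went from 7.04, 7.14 and 7.20 to 6.22, 6.29 and 6.25, a fall of 0.87 ± 0.08 (adjusted p = 0.0011), with BMP4 at 7.67, 7.53 and 7.74. Enzyme and receptor thus formed 3 steps like the BMP targets, and of the 10 genes of this list Ptgds rose by 0.88 (adjusted p = 0.0354), lost without control replicates 1 or 3, BMP4 replicates 1 or 2 or GREM1 replicates 1 or 2. Among 13 carbonic anhydrases (23.1% called, 4.29% over all genes) Car13 fell by 1.10 (adjusted p = 0.00217) beside Car8 and Car3. The glycogen phosphorylase of muscle, Pygm, went from 8.37, 8.64 and 8.40 to 9.42, 9.36 and 9.25, a rise of 0.88 ± 0.10 (adjusted p = 0.00321), and glycogen synthase, Gys1, rose by 0.90 (adjusted p = 0.0116), lost without GREM1 replicates 1 or 2. These enzymes, 1 of glycogen breakdown and 1 of synthesis, were the 2 called of 29 glycolysis and glycogen genes (6.9%, against 4.29% of all genes). Herpud1, a protein of the endoplasmic reticulum stress response, rose by 0.91 (adjusted p = 0.00362), the 1 call of 27 such genes (3.7%, against 4.29% of all genes). Their median was 0.157, and 4 rose with the replicate block. Pparg, the adipocyte transcription factor, went from 6.98, 6.67 and 6.57 to 5.59, 5.49 and 5.48, a fall of 1.22 ± 0.13 (adjusted p = 0.00161), while 6 of 10 adipocyte markers were above the filter on all 6 arrays, among them Lpl (control mean 7.18) and Cd36 (6.58), and Adipoq, Cidec, Fabp4 and Lep were not. Ptgs2, Ptger4, Car13, Pygm, Herpud1 and Pparg hold without any array.

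Against 4.29% of all genes, the share called was 16.7% of NF-kB and innate response genes, 8.0% of SRF targets, 5.13% of metalloproteinases and their inhibitors and 8.82% of Hox genes, the last 3 resting on 2 or 3 genes each. Of 24 NF-kB and innate response genes, Selp, Nfkbia, the inhibitor of NF-kB (0.62, adjusted p = 0.037), and Cd14, a co-receptor for bacterial lipopolysaccharide that was not above the filter level on any GREM1 array (at least 1.75-fold lower, adjusted p = 0.0492), fell, and Tnfaip3, which also restrains NF-kB, rose (0.72, adjusted p = 0.0197). Nfkbia lost the call without control replicates 1, 2 or 3, BMP4 replicate 2 or GREM1 replicates 1, 2 or 3, Cd14 without control replicates 1 or 3, BMP4 replicates 1 or 2 or GREM1 replicates 1, 2 or 3 and Tnfaip3 without control replicates 1 or 3 or GREM1 replicates 1, 2 or 3. Of 25 SRF target and smooth-muscle cytoskeleton genes, Acta2, smooth muscle actin, went from 9.64, 10.65 and 10.64 to 11.44, 11.62 and 11.62 (a rise of 1.25 ± 0.23, adjusted p = 0.0209), and Tagln, an actin-binding protein, rose by 0.80 (adjusted p = 0.0447) and lost the call without control replicates 1, 2 or 3, BMP4 replicates 1, 2 or 3 or GREM1 replicates 1, 2 or 3, while 8 rose and 2 fell with the replicate block. Of 39 metalloproteinases and their inhibitors, the gelatinase Mmp2 fell by 0.45 (adjusted p = 0.0365) and Mmp16 by 0.90 (adjusted p = 0.0251), and 4 rose and 4 fell with the block. Mmp2 lost the call without control replicates 1, 2 or 3, BMP4 replicate 2 or GREM1 replicates 1, 2 or 3 and Mmp16 without control replicate 2 or GREM1 replicates 1, 2 or 3. Of 34 Hox genes, which mark position along the body, Hoxc9 fell by 0.70 (adjusted p = 0.0139), Hoxa9 fell by 0.41 (adjusted p = 0.0458) and Hoxd3 rose by 0.47 (adjusted p = 0.0244). Hoxc9 lost the call without GREM1 replicate 1, Hoxa9 without control replicates 1, 2 or 3, BMP4 replicates 1, 2 or 3 or GREM1 replicates 1 or 3 and Hoxd3 without control replicates 1 or 3 or GREM1 replicates 1 or 2.

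**Figure D5:**
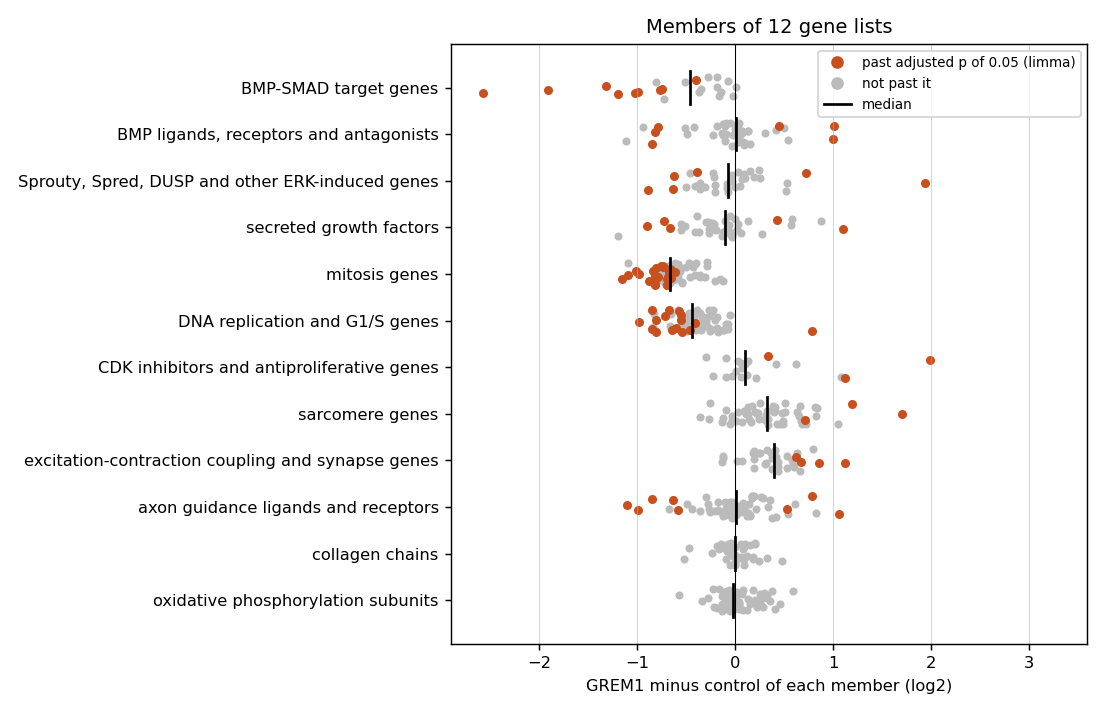
GREM1 minus control (log2, x axis) of every tested member of 12 gene lists, in orange where it passed an adjusted p of 0.05 in limma and grey where it did not, with a black bar at the median. All 72 mitosis genes lie left of 0, BMP family and axon guidance genes lie on both sides, and collagen chains and oxidative phosphorylation subunits hold no orange point.

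Of 73 oxidative phosphorylation subunits 0 passed in limma (an unadjusted p under 0.05 held for 3 upward and 2 downward differences, and 2 were higher and 1 lower with the replicate block), with a median of -0.022. Of 68 potassium channel genes (1.47% called, 4.29% over all genes) 1, Kcnab3, rose (0.41, adjusted p = 0.0388, lost without control replicates 1, 2 or 3 or GREM1 replicates 1, 2 or 3). Of 28 cholesterol and fatty acid synthesis genes (3.57% called) 1, Srebf2, rose (0.45, adjusted p = 0.0401, lost without control replicates 1, 2 or 3, BMP4 replicates 1 or 2 or GREM1 replicates 1, 2 or 3). Of 56 cytosolic ribosomal proteins (1.79% called), Rps16 fell from 5.45, 5.65 and 5.80 to 4.32, 4.76 and 4.56 (1.09 ± 0.14, adjusted p = 0.00402) and holds without any array. In this list 45 lay below 0 with a median of -0.165, and 1 rose and 6 fell with the replicate block. Relative to the control mean that list stood at 0.007, -0.054 and 0.078 on the control arrays, at -0.306, -0.182 and -0.012 with GREM1 and at -0.283, 0.045 and 0.141 with BMP4, so GREM1 replicate 3 lay within the control range. Among markers of other cell types 0 genes passed in limma in the fibroblast, endothelial, leukocyte, pericyte, tendon and cartilage lists, while over the 6 lists an unadjusted p under 0.05 held for 2 upward and 5 downward differences and the block passed 2 upward and 3 downward. The myelin protein gene Pmp22 rose by 1.08 (adjusted p = 0.0366) in the Schwann cell list and lost the call without control replicates 1, 2 or 3, BMP4 replicates 1 or 2 or GREM1 replicates 1 or 2, while Sox10 differed by 0.01 ± 0.09. The mean level of the osteoblast markers was 4.65 to 4.70 on the control arrays and 4.18 to 4.29 with GREM1, and that of the adipocyte markers 4.72 to 4.81 and 4.53 to 4.66. The member whose group means differed most was Sp7 in the former (7.13 in the controls, 4.56 with GREM1) and Pparg in the latter (6.74 and 5.52). The part of these markers in the results was not tested. Sp7 was the 1 called of 5 osteoblast markers tested, and Alpl and Bglap differed by 0.01 ± 0.11 and -0.01 ± 0.16.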

How the data were processed

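Per the labels' protocols, total RNA was amplified with a whole-transcriptome kit before labelling. The authors deposited log2 expression values. Per the submitters' processing notes, RMA and Affymetrix Expression Console were the tools. Array model and annotation build: not given in the sources used here. Of 24973 probe sets, 24015 had 1 gene symbol and 958 none in GEO's platform annotation, which gave 24011 genes. Where a gene had several probe sets (4 genes), that of the highest mean over the 9 arrays was kept. The filter required a level above the array's own 30th percentile on 3 or more arrays (3.89 to 4.02), which left 17141.

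All 9 arrays entered 1 fit in limma 3.58.1 (R 4.3.3), with moderated tests, 6 residual degrees of freedom and a median SE of 0.115, and Benjamini-Hochberg adjustment over all genes tested. The fit was tested on simulated data with independent noise on each array. Those data held no spread shared by arrays of the same number, so the test does not cover it. Precision is limited by the number of arrays. The planned comparison of GREM1 with BMP4 was fitted and is not reported. The members and gene lists were chosen with earlier results of these data known. Genes named are the 20 largest rises and 20 largest falls with an adjusted p under 0.05 and no overlap of the groups (predicted genes, clones, pseudogenes and small RNAs aside), up to 5 of each list by smallest p, and Grem1, Bmp4, Id1, Id2, Id3, Smad6, Smad7, Myod1, Myog, Myf5, Pax7, Mki67 and Cdk1. Hes1, Rgmb, Dusp5, Tcf4, Id4, Atoh8, Bambi and Msx1 are outside it, picked once their values had been seen, and the genes with printed promoters were chosen by p.

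The labels number the replicates in every group and do not say what a number shares. Deviations from the group mean correlated across genes at 0.242, 0.118 and 0.473 between control and GREM1 arrays of numbers 1, 2 and 3, above the minimum of 0.1, and at a median of -0.23 between different numbers (highest 0.233). The numbers were therefore taken as possible pairs for this comparison, on the data and not on the labels. The plan asked this minimum of same-number pairs between all groups, and that was not met. BMP4 and GREM1 arrays of number 2 reached only 0.088. The 0.118 of number 2 also lay below the highest value between different numbers. The block is an alternative to the fit above.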

Additional observations from a re-analysis of the deposited data

Results flagged for a closer look

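Probe sets that carry no gene symbol entered no comparison above. Of these 958, 713 passed the filter, and 28 (3.93%) passed an adjusted p of 0.05 in limma between GREM1 and control, 13 higher and 15 lower. They are not named here.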

How the results depend on the processing

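None of the 144 called named genes changed direction under any of 18 alternatives, and 66 of them kept the call under all of them. Changes of direction were not counted for named genes that were not called. With the replicate block the count of 735 called genes was 1985 (956 higher, 1029 lower), and with only the 6 GREM1 and control arrays it was 437 (201 higher, 236 lower). Leaving out 1 array gave 245 to 898 genes, 117 to 421 higher and 122 to 477 lower. Array weights gave 603 lower. The median of the BMP-SMAD targets (-0.457) was -0.401 without a filter and -0.623 with a filter at the 50th percentile, where fewer genes are tested, and that of the myogenic factors (0.208) was 0.130 to 0.226 without 1 array. The block changed no call of a named called gene to not called, and 56 named genes not called otherwise passed with it, 19 of them under no other alternative. Genes of low level were called least often. The causes were not tested.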

Other observations

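Genes outside the rule for naming, chosen after their values were seen from those that kept their call whichever array was left out, included the following. Stc2, a secreted glycoprotein linked to calcium and phosphate balance, stood at 6.97, 7.51 and 7.09 in the controls, 8.42, 8.41 and 8.34 with GREM1 and 7.23, 7.31 and 6.91 with BMP4 (a rise of 1.20 ± 0.15, adjusted p = 0.00359 in limma). Wfs1, a membrane protein of the endoplasmic reticulum, stood at 8.68, 8.95 and 8.80 and 9.81, 9.90 and 9.95 (a rise of 1.08 ± 0.09, adjusted p = 0.000592). Cemip, a hyaluronan-degrading protein, stood at 5.54, 5.67 and 5.49 and 6.54, 6.67 and 6.91 (a rise of 1.14 ± 0.14, adjusted p = 0.00376), where the synthase Has2 fell. None of these overlapped between GREM1 and control, as held for every called gene.

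The brain-type creatine kinase Ckb rose by 1.12 ± 0.10 (adjusted p = 0.000833), beside Ckm, and its BMP4 arrays (7.21, 7.0 and 7.29) lay below every control (7.71, 7.76 and 7.76). Mgll, which breaks down monoacylglycerols, rose by 1.00 ± 0.08 (adjusted p = 0.000592), and Mamstr, a coactivator of MEF2 factors, by 0.83 ± 0.12 (adjusted p = 0.00641). Fbxo5, an inhibitor of the anaphase-promoting complex, fell by 1.01 ± 0.14 (adjusted p = 0.00612).

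Small RNA genes gave 16 calls, 3 higher and 13 lower. All 11 called among 88 genes with a symbol that starts with Snor (12.5%, against 4.29% of all genes) were lower. Of the 88, 72 lay below 0, with a median of -0.265. These symbols are those of small nucleolar RNA genes, but the 88 include the cartilage marker Snorc, which is not one and was not called. The microRNA genes gave 5 calls among 255 (1.96%). Array probes for such genes can also read the host transcript, and this was not tested.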
